A study of Mus musculus with 7 samples.

Results

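The 33 genes described here mark neurons and the progenitors that give rise to them. They were taken by gene symbol from the 47729 genes of the deposited table, with each symbol matching 1 row; the rule itself uses no measured value. Expression was measured by RNA sequencing of surface ectoderm, the outer epithelium of the embryo, cut by laser from frozen sections of mouse heads at stage E12.5 in the region separating eye and brain. The wild type group had 3 libraries, replicates 2 to 4, and the knockout group, whose embryos lack miR-205, a microRNA of stratified epithelia, had 4, replicates 1 to 4. Each library pooled 3 embryos, so the replicate is a pool. The strain and the kind of knockout allele are not given in the sources used here. Wild type replicate 1 was left out by the submitters, who judged from lower epithelial markers such as Pax6 and Krt5 that other tissue had been captured with it, and it was not analysed here.

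Neurons arise when progenitors that carry the intermediate filament nestin switch on proneural transcription factors, leave the cell cycle and build an axon with its own tubulins, neurofilaments and vesicle proteins. In the head, brain neurons form in the neural tube, and neurons of the cranial sensory ganglia come from thickenings of the surface ectoderm and from neural crest. The genes are ordered here along that path: 1 progenitor gene, 5 proneural transcription factors, 4 sensory and 2 autonomic genes, and 21 genes of maturing neurons, of which 12 belong to axon growth and early differentiation, 6 to the axonal cytoskeleton and 3 to vesicle release. Several are not exclusive to neurons: nestin is also made by endothelial and muscle precursors, and Gap43 and Ntrk2 by glia. In tissue measured in bulk, fewer cells of a type and less RNA per cell cannot be told apart.

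The sequence that defines the knockout is the mature microRNA, shown with its seed (bases 2 to 8, the part that pairs with target messages) in capitals. It lies at chr1:193507503-193507524 on the minus strand (RefSeq, GRCm38.p6).
mmu-miR-205-5p: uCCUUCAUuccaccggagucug

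A match to the seed, ATGAAGG on the message strand, was found in the longest annotated 3′ UTR of 7 of the 33 genes (21.2%), against 1680 of the 13541 tested genes with a 3′ UTR (12.4%). The 7 were Ntrk3 with 2 matches and Crmp1, Dpysl3, Nefl, Nefm, Ina and Mapt with 1 each. The median 3′ UTR was 1285 bases long in the 33 genes and 1239 in the tested genes. A match is a description and not a measured target site. The windows below hold the seed match in capitals for the 6 genes other than Dpysl3, on the strand of the message (GENCODE M21, GRCm38).
Ntrk3, first match, chr7:78186540-78186546, minus strand: tcggcagggATGAAGGtagcctg
Ntrk3, second match, chr7:78177661-78177667, minus strand: tcaagggaaATGAAGGatttatt
Crmp1, chr5:37291672-37291678, plus strand: ctcttaaaaATGAAGGctcccat
Nefl, chr14:68088916-68088922, plus strand: gtttgaactATGAAGGctcttgg
Nefm, chr14:68082889-68082895, minus strand: caacaagccATGAAGGtagatgg
Ina, chr19:47023922-47023928, plus strand: gaagtgcaaATGAAGGtgctaaa
Mapt, chr11:104330631-104330637, plus strand: gtcccactgATGAAGGggacatc
The second match of Ntrk3 is followed by an A, which makes it the longer 8mer form, and the other matches are of the 7mer form.

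The values are normalized counts as the authors deposited them, each library's reads having been divided by a single size factor. The libraries held 8903523 to 12504790 reads, recovered from the steps between low values, and 19318 to 20713 genes with reads. Mir205 itself had 0 reads in all 7 libraries, wild type included, so its own counts check no genotype label. The long noncoding RNA 4631405K08Rik (chr1:193507238-193510174, minus strand), an exon of which contains Mir205, had 664, 1881 and 1713 normalized counts in the wild type pools and 2194, 2037, 3959 and 3346 in the knockout pools. All knockout values exceeded all wild type values (limma-trend adjusted p = 0.494), and whether that RNA carries the deletion was not tested. Wild type replicate 2 and knockout replicates 1 and 2 held under 10000000 reads. A value of 3 reads, the limit that a count of 0 allows, equalled 2.58 normalized counts in wild type replicate 3. That limit covers counting error only. In the sentences that follow, 3 wild type values stand for replicates 2, 3 and 4 and 4 knockout values for replicates 1 to 4, in that order.

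Reads of neuronal genes were present in every library, and their amount differed several-fold between wild type pools. The 33 genes together took, of every 1000000 reads, 1698, 425 and 968 in the wild type pools and 1718, 2658, 2125 and 1484 in the knockout pools. Their summed normalized counts were 18549, 4570.4 and 10225 in the wild type pools and 17255, 27595, 22298 and 15224 in the knockout pools. Wild type replicate 3 was the lowest of all 7 libraries for 29 genes. Wild type replicate 2 was the highest wild type library for 27 genes, and for the 28 genes with more than 3 reads in replicate 3 its value was a median of 5.0 times that of replicate 3. Its sum lay within the knockout range. Among the knockout libraries replicate 2 held the highest value of all libraries for 21 genes and replicate 3 for 8. How often these libraries were lowest or highest over all tested genes is not given here.

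**Figure D1:**
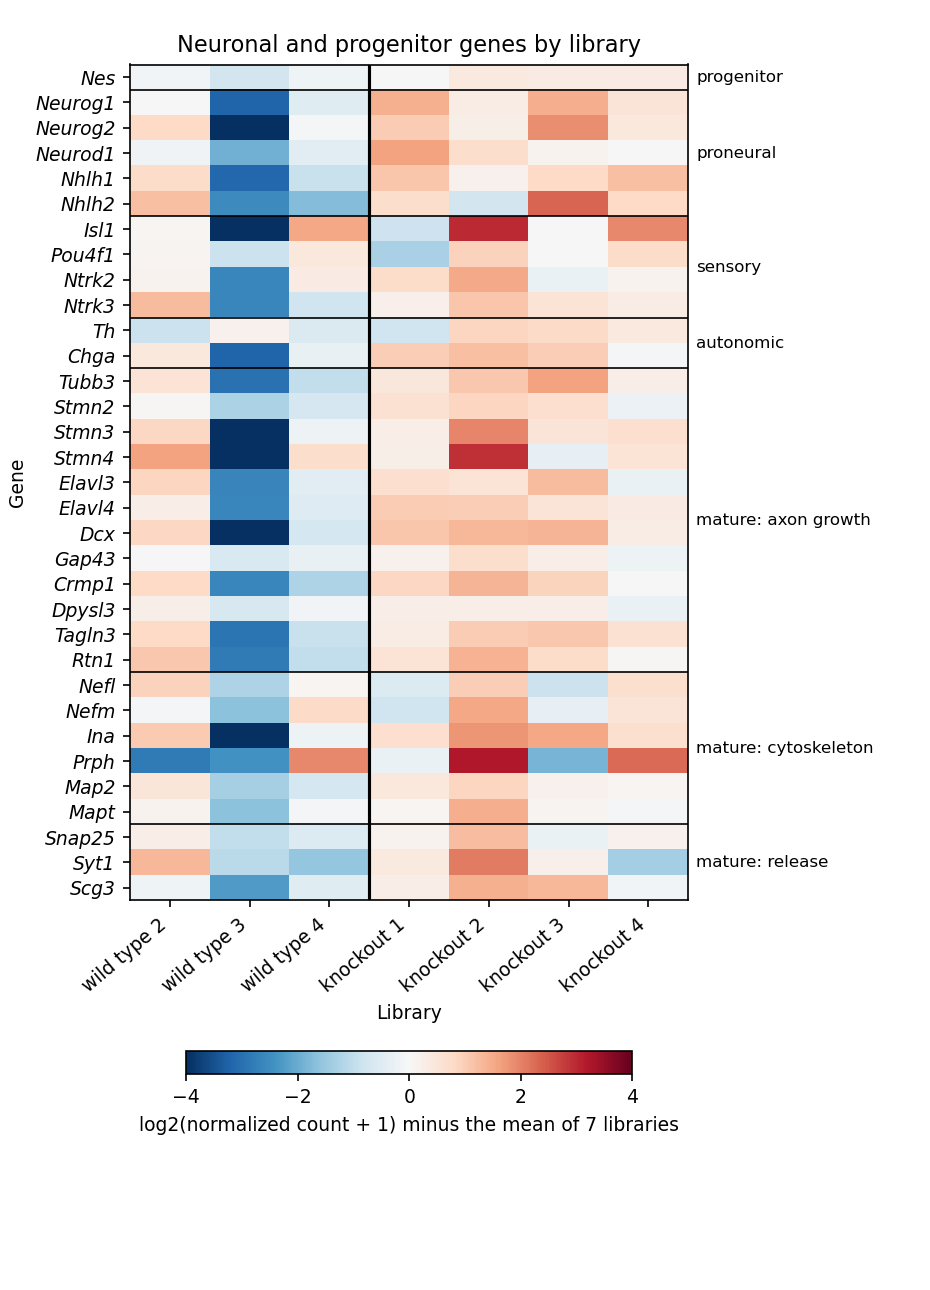
Log2(normalized count + 1) of each of the 33 genes (rows, by role) in each library (columns), minus the gene's mean over the 7 libraries, with the colour scale ending at 4 in either direction. The column of wild type replicate 3 is the lowest for 29 genes, and all sensory and cytoskeletal genes have their highest knockout value in replicate 2.

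All 33 genes had a higher mean in knockout than in wild type on the log2(normalized count + 1) scale, against 51.7% of the 15029 genes tested. The median log2 difference of the 33 was 1.60, with a range from 0.13 for Nefl to 2.70 for Ina, and that of all tested genes was 0.01. None of the differences passed the test. By limma-trend with Benjamini-Hochberg adjustment over all tested genes, 0 of 33 passed 0.1, and 0 of 15029 genes did (0%), with adjusted p from 0.361 to 0.962 for the 33. An unadjusted p under 0.05 with a higher mean was reached by 7 of the 33 (21.2%), namely Nes, Neurog1, Neurod1, Stmn2, Elavl4, Gap43 and Scg3, against 817 of 15029 genes (5.44%). In 5 genes (15.2%), Nes, Neurog1, Neurod1, Elavl4 and Scg3, every knockout library lay above every wild type library, against 706 of 15029 genes (4.7%). The 33 genes varied together from library to library, with a median Pearson's r of 0.79 over 528 pairs of genes and 7 libraries, so they do not count as separate observations. Neurog1 and Nhlh1, with wild type means under 10, passed the filter on the mean through their knockout values. Without both, 31 of 31 genes were higher with a median log2 difference of 1.46, 6 had an unadjusted p under 0.05, and 4 had every knockout library above every wild type library.

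The size of the difference rested on wild type replicate 3. Without it the median log2 difference was 0.53, and 29 genes were higher in knockout. Within the 4 libraries over 10000000 reads (wild type 3 and 4, knockout 3 and 4) all 33 genes were higher, with a median of 1.99. Of all tested genes 51.3% were higher there. In the 3 other libraries, of which wild type replicate 2 is the single wild type one, 22 of 33 were higher and the median was 0.28. Of all tested genes 48.9% were higher in that comparison. Without wild type replicate 2 the median was 2.10 and Map2 passed (log2 difference 1.40, limma-trend adjusted p = 0.0939). It was the only 1 of the 33 to pass there, against 84 of all 15029 tested genes.

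DESeq2 on the recovered reads called 1 of the 33, Nes (log2 difference 0.58, adjusted p = 0.0611), against 223 of 14712 genes (1.52%), and edgeR's quasi-likelihood test called 0 of all genes. In the authors' deposited table, 29 of the 33 genes have an adjusted p and 1, again Nes, passed 0.1 (log2 fold change 0.56, adjusted p = 0.053), against 338 of 11933 genes (2.83%). The authors' deposited table gives no adjusted p for Neurog1, Nhlh1, Pou4f1 and Ntrk3.

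**Figure D2:**
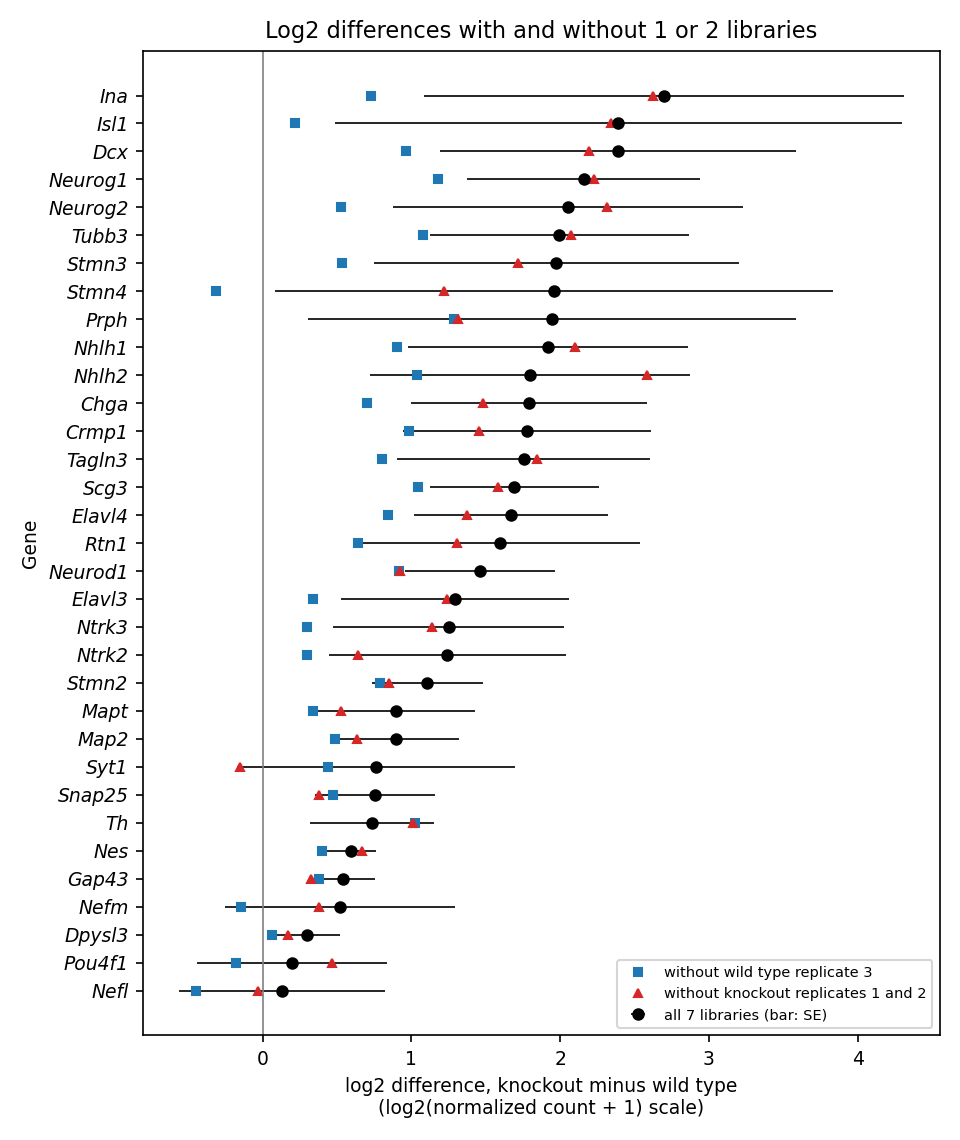
Log2 difference of knockout minus wild type for each gene, as fitted by limma-trend on log2(normalized count + 1) over all 7 libraries (black, bar: SE), without wild type replicate 3 (blue) and without knockout replicates 1 and 2 (red). Without wild type replicate 3 most values move toward 0, with a median of 0.53 in place of 1.60, and 4 fall below 0.

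Nes encodes nestin, the intermediate filament of neural progenitors, and lies at chr3:87971078-87980451 on the plus strand (GRCm38, as all gene positions here). It had 883, 567 and 838 normalized counts in the wild type pools and 934, 1251, 1192 and 1183 in the knockout pools. The 4 knockout libraries lay above the 3 wild type ones, and the highest wild type pool, replicate 2, was close to the lowest knockout pool, replicate 1. The log2 difference was 0.60 (SE 0.16), with a limma-trend adjusted p of 0.361. Over all settings it lay between 0.40, without wild type replicate 3, and 0.78.

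The 5 proneural genes encode basic helix-loop-helix transcription factors that start neurogenesis (Neurog1 and Neurog2) or act just after it (Neurod1, Nhlh1 and Nhlh2). As a group their mean log2 value was 5.91, 2.39 and 4.67 in the wild type pools and 6.58, 5.52, 6.71 and 5.99 in the knockout pools. Neurog1 (chr13:56250478-56252163, minus strand) had 15.9, 0.860 and 11.2 normalized counts in the wild type pools and 45.1, 19.8, 46.0 and 23.6 in the knockout pools, which is 1 read in wild type replicate 3. Neurog2 (chr3:127633135-127635631, plus strand) had 115, 2.58 and 61.7 normalized counts in the wild type pools and 134, 76.9, 239.6 and 89.3 in the knockout pools, with 3 reads in wild type replicate 3. Both were lowest in that pool, and knockout replicate 3 was their highest library. The log2 difference was 2.16 (SE 0.78) for Neurog1 and 2.05 (SE 1.17) for Neurog2.

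Neurod1 (chr2:79452521-79456751, minus strand) had 75.7, 21.5 and 61.7 normalized counts in the wild type pools and 259, 139, 92.8 and 85.8 in the knockout pools. Its highest library was knockout replicate 1, and all knockout values exceeded all wild type values, the closest pair being 85.8 and 75.7. The log2 difference was 1.46 (SE 0.50, limma-trend adjusted p 0.442). Part of its exons, 201 bases shared with Cerkl and 154 shared with Gm26755, could hold reads of those genes. Nhlh1 had 13.4, 0 and 3.74 normalized counts in the wild type pools and 18.1, 8.79, 14.1 and 19.3 in the knockout pools, with no read in wild type replicate 3. Nhlh2 had 358, 25.8 and 45.8 normalized counts in the wild type pools and 254, 92.3, 782 and 268 in the knockout pools, the widest spread among the proneural genes within the knockout group. Wild type replicate 2 exceeded 3 of the 4 knockout libraries for Nhlh2, so the groups overlapped. The wild type mean was 9.32 for Neurog1 and 5.72 for Nhlh1.

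Of the sensory genes, Isl1 and Pou4f1 encode homeodomain factors of sensory neurons, and Ntrk2 and Ntrk3 encode the neurotrophin receptors TrkB and TrkC. Isl1 had 53.7, 0 and 151 normalized counts in the wild type pools and 28.2, 410.0, 52.2 and 198 in the knockout pools. It was high in wild type replicate 4 and knockout replicates 2 and 4 and low in the other pools of both groups, with no read in wild type replicate 3. Its log2 difference of 2.39 has an SE of 1.91, and without wild type replicate 3 it was 0.22. A value at 0 reads makes such a difference depend on the pseudocount. Pou4f1 had 19.5, 9.46 and 24.3 normalized counts in the wild type pools and 6.77, 35.2, 17.7 and 30.6 in the knockout pools and a log2 difference of 0.20 (SE 0.64), which turned to -0.18 without wild type replicate 3, -0.08 without knockout replicate 2 and -0.02 without knockout replicate 4.

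Ntrk2 had 182, 26.7 and 211 normalized counts in the wild type pools and 279, 483, 137 and 184 in the knockout pools, and Ntrk3 had 76.9, 4.30 and 17.8 normalized counts in the wild type pools and 36.1, 69.3, 46.9 and 38.5 in the knockout pools. For Ntrk3 wild type replicate 2 was the highest of all libraries. Knockout replicate 2 was the highest knockout library for all 4 sensory genes. Their mean log2 value was 5.98, 2.65 and 5.97 in the wild type pools and 5.29, 7.23, 5.66 and 6.36 in the knockout pools, so that 2 knockout pools lay below 2 wild type pools.

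**Figure D3:**
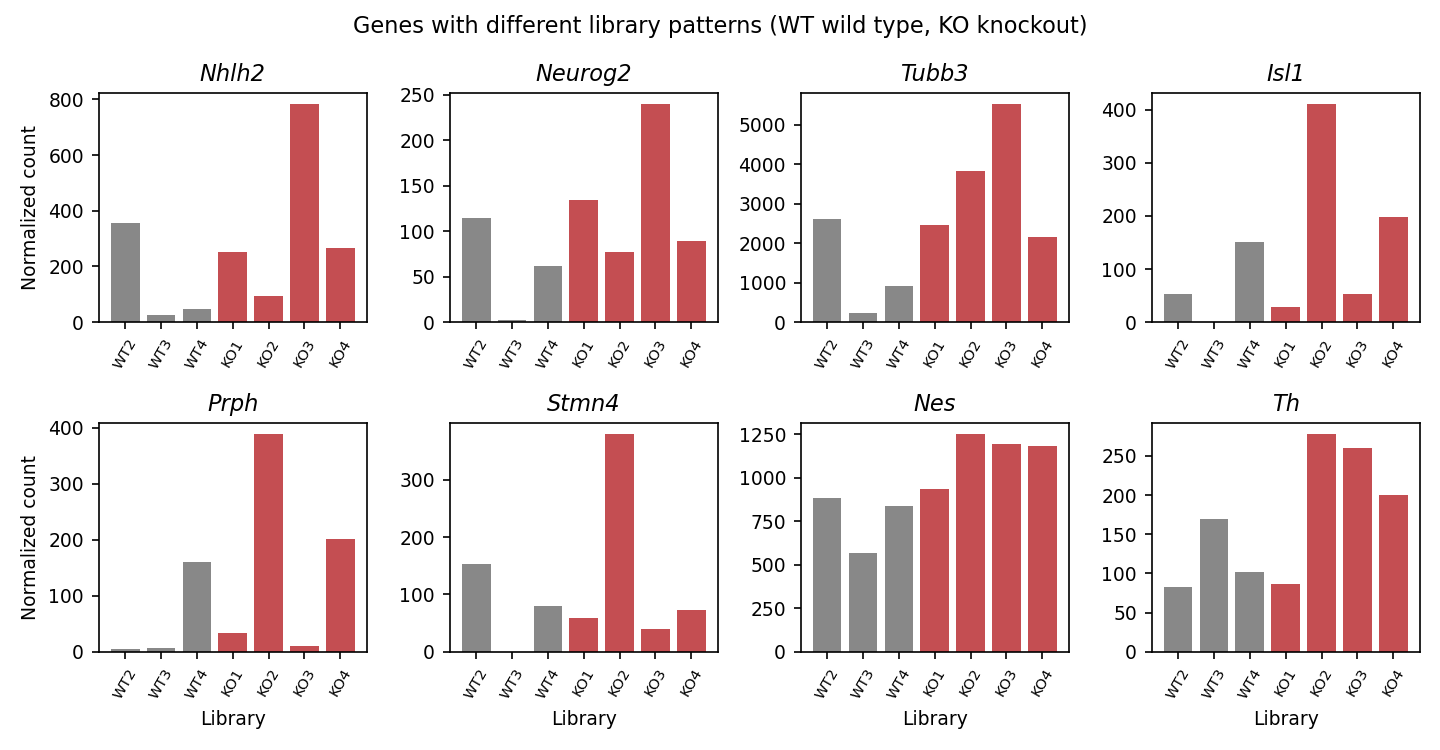
Normalized counts of 8 genes in each library (grey, wild type; red, knockout). Nhlh2, Neurog2 and Tubb3 are highest in knockout replicate 3, Isl1 and Prph are high in wild type replicate 4 and knockout replicates 2 and 4, Stmn4 stands out in knockout replicate 2, Nes varies least, and Th is not lowest in wild type replicate 3.

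The promoters of Nhlh2 and Isl1, which are high in different pools, are printed with proneural E-boxes, CAGATG and CAGCTG, in capitals. Both motifs were searched on both strands of RefSeq promoters from 250 bases before to 50 after the gene start (GRCm38.p6), and 24 of the 33 genes had one. CAGATG occurred in 6 of the 24, against 19.2% of all genes with such a promoter, and CAGCTG in 8 of the 24, against 18.3%. CAGCTG is its own reverse complement. The Nhlh2 window holds both motifs and the Isl1 window holds CAGCTG.
Nhlh2 promoter, chr3:102009895-102010194, plus strand: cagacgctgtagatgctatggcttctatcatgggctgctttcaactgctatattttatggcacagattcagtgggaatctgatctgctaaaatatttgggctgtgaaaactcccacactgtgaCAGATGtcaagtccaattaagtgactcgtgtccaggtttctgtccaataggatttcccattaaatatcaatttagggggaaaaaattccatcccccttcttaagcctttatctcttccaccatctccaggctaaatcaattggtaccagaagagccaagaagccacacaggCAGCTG
Isl1 promoter, chr13:116309639-116309938, minus strand: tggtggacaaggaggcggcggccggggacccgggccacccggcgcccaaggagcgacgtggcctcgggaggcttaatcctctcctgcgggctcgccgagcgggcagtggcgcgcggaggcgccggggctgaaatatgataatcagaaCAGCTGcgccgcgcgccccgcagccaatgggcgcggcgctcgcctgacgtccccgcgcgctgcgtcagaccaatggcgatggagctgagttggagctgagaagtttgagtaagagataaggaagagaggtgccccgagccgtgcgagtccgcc
The left part of the RE1 element, TTCAGCACC, to which the neuronal gene repressor REST binds as part of a longer motif, was in 0 of the 24 windows and in 0.433% of all genes' windows. A motif is a run of letters and was not measured as a bound site.

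The 2 autonomic genes had different patterns over the pools. Th, which encodes tyrosine hydroxylase, the first enzyme of catecholamine synthesis, had 83.0, 169 and 102 normalized counts in the wild type pools and 86.9, 278, 259.9 and 200.4 in the knockout pools. Wild type replicate 3 was its highest wild type library, unlike every other gene of the set, and knockout replicate 1 lay among the wild type values. Chga, which encodes chromogranin A of secretory granules, had 64.7, 4.30 and 38.4 normalized counts in the wild type pools and 94.8, 109.9, 94.6 and 45.5 in the knockout pools. Its lowest library was wild type replicate 3, as for most genes. The log2 difference was 0.74 (SE 0.42) for Th and 1.79 (SE 0.79) for Chga. Further genes of autonomic and visceral motor neurons were scarce: 6 of 12 were under the mean of 10, among them Phox2a, Hand2, Dbh and Chat.

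The 12 genes of axon growth and early differentiation made up most of the neuronal reads. In normalized counts per kilobase of exon, Tubb3 had the highest level of the 33 genes in both group means, 669 in wild type and 1870.1 in knockout. Next came Gap43 in wild type (456) and Tagln3 in knockout (736). The order differed between pools: in wild type replicate 3 the highest level per kilobase was that of Gap43, at 362, and Tubb3 had 122. Tubb3 encodes the neuronal beta-tubulin; reads in coding sequence shared with other beta-tubulin genes can be lost or split, which makes its level uncertain. It had 2608, 228 and 914 normalized counts in the wild type pools and 2472, 3839, 5513 and 2150.4 in the knockout pools. Knockout replicates 1 and 4 lay below wild type replicate 2, and the log2 difference was 1.99 (SE 0.87).

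Among the stathmins, which bind tubulin dimers in growing axons, Stmn2 had 1266, 509.8 and 762 normalized counts in the wild type pools and 1873, 2217, 1947 and 1039 in the knockout pools. Stmn3 had 651, 21.5 and 312 normalized counts in the wild type pools and 435, 1392, 519 and 575 in the knockout pools. Stmn4 had 154, 0 and 80.4 normalized counts in the wild type pools and 58.7, 380.3, 38.9 and 72.6 in the knockout pools. Knockout replicate 2 held the highest value of Stmn3 and Stmn4 by a wide margin, and Stmn4 had no read in wild type replicate 3. Without that pool the log2 difference of Stmn4 turned from 1.96 to -0.31.

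The RNA-binding proteins of early neurons, Elavl3 and Elavl4, had 129, 10.3 and 51.4 normalized counts in the wild type pools and 113, 102, 169 and 58.6 in the knockout pools for Elavl3 and 386, 51.6 and 222 normalized counts in the wild type pools and 653, 636, 454 and 405 in the knockout pools for Elavl4. Each knockout value of Elavl4 exceeded each wild type value, with a log2 difference of 1.67 (SE 0.65, limma-trend adjusted p 0.479). Elavl3 shares 256 exon bases with Gm49318, and its groups overlapped. Dcx, the doublecortin gene of migrating neurons, had 514, 14.6 and 177 normalized counts in the wild type pools and 623, 727, 743 and 358 in the knockout pools. Gap43, a protein of growth cones, had 839.8, 551 and 694 normalized counts in the wild type pools and 952, 1394, 1013 and 729.9 in the knockout pools. Dcx spanned a far wider range between wild type pools than Gap43.

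Crmp1 and Dpysl3 encode collapsin response mediator proteins, which relay guidance signals to the growth cone. Crmp1 had 1128, 106 and 272 normalized counts in the wild type pools and 1141, 1654, 1208 and 635 in the knockout pools, and Dpysl3 had 2102, 1151 and 1677 normalized counts in the wild type pools and 2155, 2144, 2183 and 1482 in the knockout pools. Dpysl3 was among the least variable genes, and knockout replicate 4 was lower than wild type replicate 4. Tagln3, a calponin-like protein of neurons, had 914, 69.6 and 285 normalized counts in the wild type pools and 657, 1075, 1113 and 808 in the knockout pools. Rtn1, a reticulon of the neuronal endoplasmic reticulum, had 1850.5, 123 and 442 normalized counts in the wild type pools and 1283, 2305, 1462 and 913 in the knockout pools. For both, wild type replicate 2 lay inside the knockout range and wild type replicate 3 was far below it.

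The cytoskeletal genes encode the light and medium neurofilaments (Nefl, Nefm), internexin (Ina), peripherin (Prph) and the microtubule-associated proteins MAP2 and tau (Map2, Mapt). Prph, an intermediate filament of peripheral neurons, had 4.88, 6.88 and 160.0 normalized counts in the wild type pools and 33.8, 389, 10.6 and 201 in the knockout pools. It was high in the same pools as Isl1, namely wild type replicate 4 and knockout replicates 2 and 4, and low in wild type replicates 2 and 3 and knockout replicate 3. Nefm had 447, 147 and 779 normalized counts in the wild type pools and 261, 1330.1, 359.8 and 648 in the knockout pools and Nefl had 1515, 339 and 836 normalized counts in the wild type pools and 538, 1587, 437 and 1246 in the knockout pools. Both were highest in knockout replicate 2, and knockout replicates 1 and 3 lay below wild type replicates 2 and 4.

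Nefl and Nefm lie beside each other on chromosome 14 and share 1108 exon bases on opposite strands; the labels do not say whether counting used strand, so their reads there cannot be told apart. Their log2 differences were 0.13 (SE 0.69) and 0.52 (SE 0.77), both among the smallest of the set, and without wild type replicate 3 they were -0.45 and -0.15. Ina had 649, 6.02 and 275 normalized counts in the wild type pools and 502, 1077, 909 and 487 in the knockout pools, with a log2 difference of 2.70 (SE 1.61), the largest of the set; it shares 456 exon bases with Nt5c2 on the opposite strand. Without wild type replicate 3 the difference of Ina was 0.73. Map2 had 904, 254 and 395 normalized counts in the wild type pools and 859, 1165, 723 and 676 in the knockout pools, and Mapt had 231, 66.2 and 200.2 normalized counts in the wild type pools and 218, 569, 223 and 197 in the knockout pools. Their groups overlapped, and only knockout replicate 2 lay above wild type replicate 2 for each.

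The 3 release genes act at vesicles of maturing neurons. Snap25 encodes a SNARE protein of synaptic vesicle fusion and had 103, 43.0 and 58.0 normalized counts in the wild type pools and 95.9, 203, 71.6 and 96.3 in the knockout pools. Syt1 encodes the calcium sensor synaptotagmin 1 and had 159, 29.2 and 20.6 normalized counts in the wild type pools and 82.4, 270.4, 71.6 and 23.6 in the knockout pools. Wild type replicate 2 exceeded 3 knockout libraries for Snap25 and for Syt1. Without knockout replicates 1 and 2 the log2 difference of Syt1 turned from 0.76 to -0.15. Scg3, secretogranin III of dense-core granules, had 54.9, 12.0 and 44.0 normalized counts in the wild type pools and 74.5, 165, 157 and 56.9 in the knockout pools. Each knockout value of Scg3 lay above each wild type value, the closest pair being 56.9 and 54.9, and its log2 difference was 1.69 (SE 0.57, limma-trend adjusted p 0.441).

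**Figure D4:**
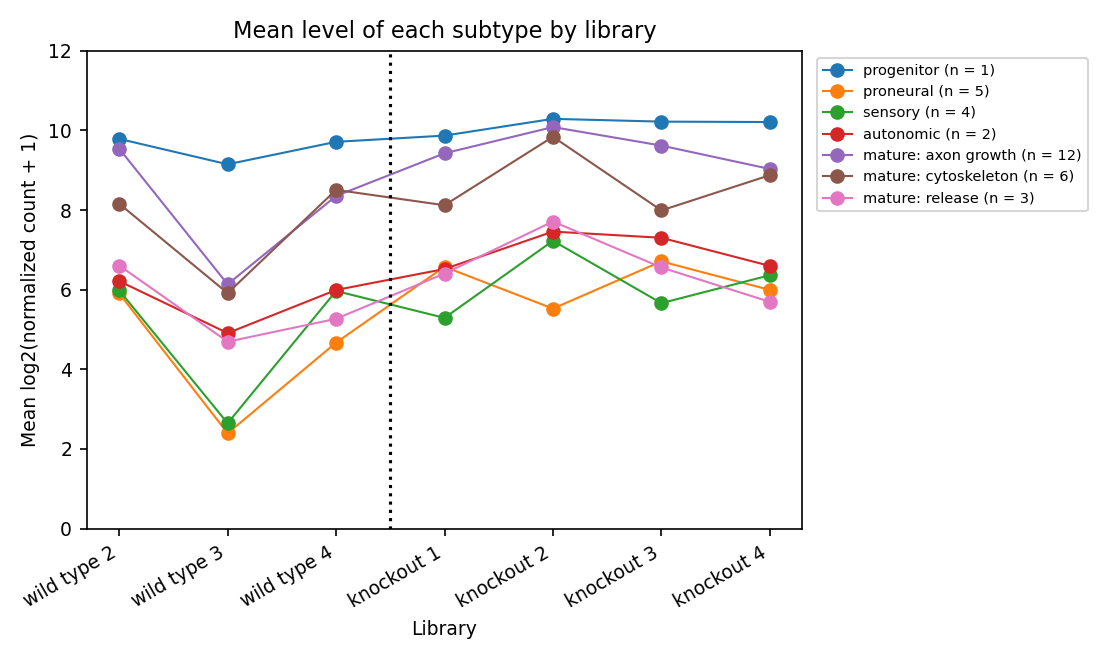
Mean log2(normalized count + 1) of the genes of each role in each library, with lines that join the values of a role and stand for no order of the pools. Wild type replicate 3 is the lowest pool for each of the 7 roles. Knockout replicate 2 is the highest pool for each role but the proneural genes, for which it is the lowest knockout pool (5.52).

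The roles differed in which pool was high. Of the 4 knockout pools, replicate 2 was highest for 4 of 4 sensory, 6 of 6 cytoskeletal, 3 of 3 release and 2 of 2 autonomic genes, yet for 0 of 5 proneural genes, where replicate 3 was highest in 3, replicate 1 in 1 and replicate 4 in 1. For Neurog1, knockout replicates 3 and 1 were nearly equal, at 46.0 and 45.1 normalized counts. The axon growth genes were divided, with replicate 2 highest in 6, replicate 3 in 5 and replicate 1 in 1. The matching shares over all tested genes are not given here, and genes that vary together are not separate observations. In knockout replicate 3 the mean log2 value was 6.71 for proneural and 5.66 for sensory genes, and in knockout replicate 2 it was 5.52 and 7.23. The difference of group means was 1.88 for proneural, 1.27 for sensory, 1.26 for autonomic, 1.53 for axon growth, 1.18 for cytoskeletal and 1.07 for release genes and 0.60 for Nes, and these were not tested against each other.

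Other genes of neural cells, from lists that exclude the 33, were higher in knockout in most cases and called in none. Of 21 further axon and cytoskeleton genes all 21 had a higher mean, with a median log2 difference of 0.78, and of 22 further synaptic and secretory genes all 22 had, with a median of 1.02, beside 51.7% and 0.01 for all tested genes. The 2 with the smallest p were Kif1a, a kinesin of synaptic vesicle precursors, with 168, 82.5 and 260.1 normalized counts in the wild type pools and 331, 405, 274 and 264 in the knockout pools, and Dpysl2, with 1879, 1284 and 1348 normalized counts in the wild type pools and 2048, 1934, 1959 and 1719.8 in the knockout pools, in the first list. In the second list Nsg1 had 1779.7, 1278 and 1491 normalized counts in the wild type pools and 1758, 2199.6, 1857 and 1691 in the knockout pools. Wild type replicate 3 was the lowest library for these 3 genes. The mean log2 value of each list was also lowest in that pool, at 7.76 for the first list and 4.72 for the second. Wild type replicate 2, at 9.23 and 7.59, exceeded every knockout pool except replicate 2, at 9.44 and 8.03. Over the 7 libraries both means followed that of the 33 genes (r = 0.99 and 0.97), so the lists are not separate observations.

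Of 14 further progenitor genes 13 were higher, with a median log2 difference of 0.63. Hes6, a promoter of neuronal differentiation, had 995, 614 and 629.6 normalized counts in the wild type pools and 1248, 1021, 1072 and 1033 in the knockout pools. The autonomic list, of which 6 of 12 genes could be tested, had 4 higher and a median of 0.43. Its mean log2 value over the tested genes was lowest in wild type replicate 3, at 4.64. Gata3, the most abundant gene of the list, was highest in that pool and so does not stand for the list. Gata3 had 234, 292 and 259 normalized counts in the wild type pools and 143, 275, 255 and 268 in the knockout pools. Each of these values had a limma-trend adjusted p over 0.1, the lowest being 0.370 for Hes6.

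Some genes that mark a place in the nervous system were high in particular pools. Of 16 genes of brain neuroepithelium and brain neurons 14 were higher in knockout (median log2 difference 0.87), with Gad1 at 37.8, 7.74 and 0.935 normalized counts in the wild type pools and 28.2, 45.1, 28.3 and 35.9 in the knockout pools and Sox1 at 29.3, 0 and 11.2 normalized counts in the wild type pools and 65.4, 48.4, 27.4 and 17.5 in the knockout pools as the smallest p. The mean log2 value of the list was 5.99, 3.70 and 4.74 in the wild type pools and 6.92, 7.21, 4.60 and 4.70 in the knockout pools. Its most abundant gene, Otx1, went another way. It had 1960, 2810 and 2741 normalized counts in the wild type pools and 1213, 1496, 2540 and 2456 in the knockout pools. Otx1 was highest in wild type replicate 3 and lowest in knockout replicates 1 and 2. Tbr1, of cortical neurons and chosen for naming after its values were seen, had 23.2, 3.44 and 8.42 normalized counts in the wild type pools and 123, 280.3, 0 and 0 in the knockout pools. It was high in knockout replicates 1 and 2 alone and had no read in knockout replicates 3 and 4.

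Of 15 tested genes of cranial sensory ganglia outside the 33, 13 were higher (median 0.90), with Runx1, at 84.2, 58.5 and 100.1 normalized counts in the wild type pools and 275, 142, 77.8 and 152 in the knockout pools, as the smallest p. The mean log2 value of that list was 4.19, 3.53 and 5.99 in the wild type pools and 5.38, 6.72, 4.17 and 6.19 in the knockout pools. Prrxl1, a homeobox gene of sensory neurons named after its values were seen, had 23.2, 0 and 80.4 normalized counts in the wild type pools and 42.9, 147, 16.8 and 103 in the knockout pools. Wild type replicate 4 and knockout replicates 2 and 4 were its highest pools, the pools in which Isl1 and Prph were high. Pou4f2 and Pou4f3 were under the mean of 10.

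Across the 7 libraries, 10 genes outside the 33 with a mean of at least 50 followed the mean log2 value of the 33 most closely, as a description without a test: Nacad, Rab3a, Gng3, Reep2, Pnmal1, Apba2, Gdap1l1, Atcay, Nmnat2 and Scn3a. Pearson's r was between 0.987 for Scn3a and 0.997 for Nacad, and of 11296 genes considered 211 (1.87%) had an r over 0.9. The libraries share their scaling and wild type replicate 3 lies far below the rest, so few points set these values. Over the 5 libraries other than wild type replicate 3 and knockout replicate 2, the 2 farthest from the median, r for the 10 genes was between 0.83 and 0.98. Nacad had 127, 5.16 and 60.8 normalized counts in the wild type pools and 111, 234, 166 and 114 in the knockout pools. Rab3a, a GTPase of synaptic vesicles, had 245, 61.9 and 149 normalized counts in the wild type pools and 209.8, 334, 232 and 231 in the knockout pools. Within the set, Stmn3 was closest to the mean of the other 32 genes (r = 0.99) and Th the least close (r = 0.13).

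Markers of other cell types were examined in the same pools. The 18 surface ectoderm and basal epithelium genes, which define the labelled tissue, were present in every library and summed to 44842 to 55951 normalized counts across wild type pools and 31309.7 to 51553 across knockout pools, with 1 of 18 higher in knockout and a median log2 difference of -0.32. Their most abundant gene, Krt15, had 9689, 10647 and 13902 normalized counts in the wild type pools and 6833, 5757, 11751 and 8553 in the knockout pools. The lowest sums were those of knockout replicates 1 and 2, at 31309.7 and 33303, and knockout replicate 3 had 51553 beside a high sum of neuronal genes.

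Of 13 macrophage genes 13 were higher (median 0.92), summing to 550.2 to 1744 normalized counts across wild type pools and 1271 to 2371 across knockout pools, with C1qb at 204, 81.7 and 136 normalized counts in the wild type pools and 291, 372, 187 and 230.2 in the knockout pools. Of 13 endothelial genes 12 were higher (median 0.77), summing to 867 to 1085 normalized counts across wild type pools and 1004 to 3159 across knockout pools, with Kdr at 127, 97.2 and 106 normalized counts in the wild type pools and 243, 409, 202 and 104 in the knockout pools. Of 12 genes of glial and melanocyte precursors 9 were higher (median 0.60), summing to 1327 to 5239 normalized counts across wild type pools and 4063 to 5158 across knockout pools, with Fabp7 at 3216, 29.2 and 532 normalized counts in the wild type pools and 2654, 1997, 1513 and 1133 in the knockout pools. In wild type replicate 3, the pool with the fewest neuronal reads, each of these 3 lists also had its lowest sum.

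The 10 skeletal muscle genes had 9 higher (median 1.49), with sums of 67.1 to 2256 normalized counts across wild type pools and 127 to 11392 across knockout pools, and their highest pools were wild type replicate 4 and knockout replicates 1 and 2. The most abundant of them, Actc1, had 156, 11.2 and 896 normalized counts in the wild type pools and 1291, 5696, 146 and 43.8 in the knockout pools. The 14 mesenchymal genes had 9 higher (median 0.18, sums of 21233 to 24188 normalized counts across wild type pools and 22362 to 34122 across knockout pools), with Col3a1 at 3951, 5388 and 4992 normalized counts in the wild type pools and 9809, 8658, 4738 and 5736 in the knockout pools. The 11 erythroid genes had 0 higher (median -0.68, sums of 195275 to 771076 normalized counts across wild type pools and 163421 to 406123 across knockout pools), with Hbb-y at 464873, 271255 and 114809.9 normalized counts in the wild type pools and 98885, 253167, 223403 and 121032 in the knockout pools. No list had a gene at 0 in all 7 libraries. The part of these cell types in the differences of the 33 neuronal genes was not tested. With depth as a covariate the median log2 difference of the 33 was 1.35.

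**Figure D5:**
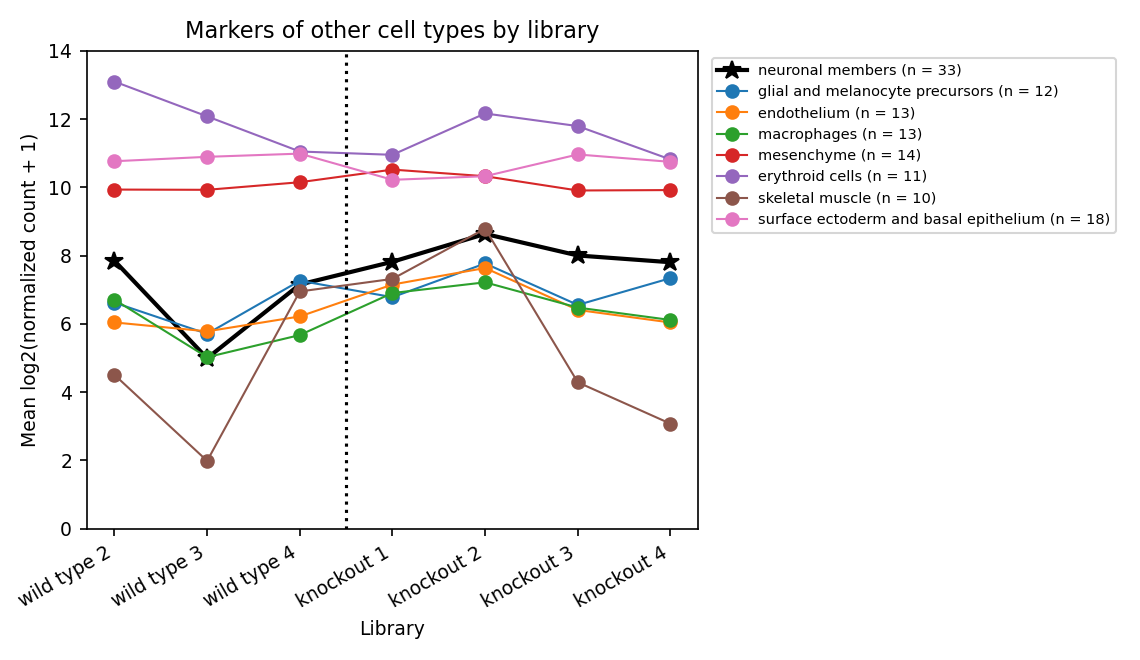
Mean log2(normalized count + 1) of the 33 neuronal genes (black stars) and of marker lists of other cell types in each library, with lines that join the values of a list and stand for no order of the pools. Neuronal and macrophage genes share their lowest library, wild type replicate 3, and ectodermal genes are lowest in knockout replicates 1 and 2.

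Genes with a miR-205 seed match had a smaller median difference than those without one. Their median log2 difference was 0.90 over 7 genes, and that of the 26 without a match was 1.68, with all 33 above 0. Of the 7, Ina had the largest difference of the whole set (2.70) and Nefl the smallest (0.13), and Ntrk3, with 2 matches, had 1.25 (SE 0.78). The 2 medians were not tested against each other.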

How the data were processed

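Gene expression was measured in 7 laser-captured pools of surface ectoderm, 3 wild type and 4 without miR-205. Per the submitters' processing notes, reads were handled with TopHat2 2.0.9, HTSeq and DESeq2 on the mouse genome GRCm38. The deposited signal columns hold normalized counts, in which the authors divided the reads of a library by a single size factor. The deposited log2 column is the authors' fold change of knockout over wild type, and the deposited p-value columns are the authors' p and adjusted p.

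With the smallest value above 0 in a library taken as 1 read, 100% of the values above 0 were whole reads within 0.01 read, which gave the depths. The unit being normalized counts, the main test was limma-trend (limma 3.58.1, R 4.3.3) on log2(normalized count + 1), moderated robustly. It ran over 15029 genes whose mean reached 10, and p-values were adjusted by Benjamini-Hochberg and called under 0.1. That scale makes changes of weakly expressed genes depend on the pseudocount, with log2 differences for Isl1 of 2.72 at 0.5 and 1.65 at 5. For the 33 genes it gave a larger median difference, 1.60, than edgeR (1.06) and DESeq2 (1.07) on the recovered reads. Quasi-likelihood tests of edgeR 4.0.16 and DESeq2 1.42.0 on the recovered reads were alternatives, beside other filters, pseudocounts, scalings, a depth covariate, a replicate block and the omission of libraries. The tests were checked on simulated data.

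All 33 genes passed the filter. The genes, the marker lists and the tests were chosen with earlier results of these data known. Library values are given for all 33 genes; of each other neural list the called genes, or else the 2 with the smallest p, are named, of each other cell type the most abundant gene, and any other gene named is marked as chosen after its values were seen. Some genes that this rule selects are not reported here. The 3′ UTRs came from GENCODE M21 and the promoters and the microRNA from RefSeq. Replicate numbers shared by the groups were not taken as pairs, because deviations of same-numbered libraries correlated at 0.10, 0.11 and -0.01.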

Additional observations from a re-analysis of the deposited data

Results flagged for a closer look

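In the 4 knockout libraries, 4 of the 33 genes had 1 library that stood apart from the other 3 by Dixon's criterion at the 95% level, and chance alone flags about 1 in 20 groups. That rate assumes independent groups of normally distributed values. The values used were normalized counts without a log, and the 33 genes varied together, so the 2 rates cannot be compared directly. Knockout replicate 2 was above the other 3 for Stmn3 (1392 normalized counts), Stmn4 (380.3) and Mapt (569). Knockout replicate 4 was below the other 3 for Dpysl3 (1482 normalized counts). Groups of 3, and so the wild type libraries, were not examined in this way.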

How the results depend on the processing

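All 33 genes kept a higher mean in knockout with edgeR, DESeq2, no filter on the mean, pseudocounts of 0.5 and 5, log2 CPM, a depth covariate and the libraries over 10000000 reads alone; the median log2 difference of the 33 was 1.06 with edgeR, 1.07 with DESeq2 and 1.23 with a pseudocount of 5. A filter of a value above 10 in every library left 23 of them, all higher, with a median of 1.24. Leaving out 1 library at a time gave 29 to 33 higher and a median between 0.53 and 2.10. Without knockout replicates 1 and 2 together 31 were higher (median 1.24), and Nefl (-0.032) and Syt1 (-0.15) turned below 0. With 1 library left out, values went from -0.18 to 0.66 for Pou4f1, -0.31 to 3.32 for Stmn4, -0.45 to 0.63 for Nefl and -0.15 to 1.05 for Nefm; the cause was not tested. The number of all tested genes past 0.1, 0 in the main test, was 223 with DESeq2, 2 with the filter on every library, 38 in the libraries over 10000000 reads, 3 without knockout replicates 1 and 2, and 0 to 84 with 1 library left out, the 84 without wild type replicate 2. Among the 33 it was 1 with DESeq2 (Nes) and 0 to 1 with 1 library left out (Map2). The comparison within the libraries under 10000000 reads was chosen after seeing the data. With the replicate number as a block over numbers 2, 3 and 4, which leaves out knockout replicate 1, 3 genes passed, 0 of the 33 did and their median was 1.57. Neurog1, Neurog2, Nhlh1, Isl1 and Stmn4 had at most 3 reads in wild type replicate 3, the deepest library, so their values there lie within the limit that a count of 0 allows.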

Other observations

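Of 8 tested genes of the retina 5 had a higher mean in knockout (median log2 difference 0.25), and 0 had a limma-trend adjusted p under 0.1. Their mean log2 value was 5.34, 4.53 and 6.75 in the wild type pools and 5.61, 5.83, 4.59 and 5.67 in the knockout pools. The most abundant gene of the list, Lhx2, had 131, 52.4 and 147 normalized counts in the wild type pools and 653, 285, 53.0 and 102 in the knockout pools. Both Lhx2 and the summed counts of the list were highest in knockout replicate 1, where Lhx2 gave 653 of the 1364 summed counts. Lhx2 is also on the list of brain genes. The mean log2 value of the retina list was highest in wild type replicate 4 instead. Rax, a homeobox gene of retinal progenitors that was named after its values were seen, was highest in wild type replicate 4. It had 11.0, 2.58 and 74.8 normalized counts in the wild type pools and 1.13, 17.6, 3.54 and 27.1 in the knockout pools. In wild type replicate 4 Isl1 and Prph were also high, while the mean log2 value of the proneural genes was 4.67, below the 5.91 of wild type replicate 2.

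The fatty acid-binding protein gene Fabp7, found in radial glia and in Schwann cell precursors and on 2 of the marker lists, had 3216, 29.2 and 532 normalized counts in the wild type pools and 2654, 1997, 1513 and 1133 in the knockout pools. It was lowest in wild type replicate 3, as were 29 of the 33 neuronal genes.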
